A study of Mus musculus with 12 samples.

Results

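The 9 genes described here mark a pair of neighbouring stretches of the kidney tubule, the thick ascending limb of the loop of Henle and the distal convoluted tubule. They are Slc12a1, Kcnj1, Umod and Ptger3 of the thick ascending limb, Slc12a3, Trpm6 and Pvalb of the distal convoluted tubule, and Egf and Calb1, which distal segments share. They were chosen by symbol, and each matched 1 of the 42748 genes in the deposited table of mouse kidney read counts. All 9 were among the 19218 genes with enough counts to be tested. Total RNA of whole kidney was sequenced from adult mice, and 12 libraries fell into 4 groups of 3. Knockout IRI and knockout control kidneys came from mice with a deletion of Ybx3, and wild-type IRI and wild-type control kidneys from mice without it. Ybx3 encodes the nucleic acid binding protein DbpA, by which the libraries are named. IRI is experimental ischemia/reperfusion injury of the kidney, in which the blood supply is interrupted and then let back in, and control kidneys were described as healthy. The strain, sex and exact age of the mice, the part of Ybx3 deleted, the time after injury and whether controls had surgery could not be read from the labels. Nothing says which libraries come from separate animals, so the p-values speak of the spread among these libraries only.

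The thick ascending limb takes up salt without water. Its apical cotransporter, the product of Slc12a1 (NKCC2) and the target of loop diuretics, depends on potassium that returns to the lumen through the channel encoded by Kcnj1 (ROMK), and the voltage that results drives calcium and magnesium between the cells. The distal convoluted tubule follows and takes up salt through the thiazide-sensitive cotransporter encoded by Slc12a3 (NCC) and magnesium through a channel formed with the product of Trpm6. Uromodulin, encoded by Umod, is the most abundant protein of normal urine, and the precursor of epidermal growth factor, encoded by Egf, is made in the same distal segments.

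RefSeq promoter windows of GRCm38.p6, from 250 bases before to 50 after a start site, were found for 8 of the 9 genes, 10 windows in all. Of these, 4 are printed to set the 2 thick ascending limb genes with the most different response to IRI, Slc12a1 and Umod, beside a pair of distal convoluted tubule genes, Slc12a3 and Pvalb. Capitals mark the matches, on either strand, to 4 motifs: an HNF1 motif (GTTAAT), an estrogen-related receptor site (TCAAGGTCA), a TATA box (TATAAA) and an AP-2 site (GCCNNNGGC).
Slc12a1, chr2:125152350-125152649, plus strand: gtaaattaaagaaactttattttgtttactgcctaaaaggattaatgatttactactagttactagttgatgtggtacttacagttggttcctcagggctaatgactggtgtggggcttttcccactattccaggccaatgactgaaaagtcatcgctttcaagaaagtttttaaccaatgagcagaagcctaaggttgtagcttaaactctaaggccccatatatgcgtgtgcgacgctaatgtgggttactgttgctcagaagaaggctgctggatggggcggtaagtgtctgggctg
Umod, chr7:119479213-119479512, minus strand: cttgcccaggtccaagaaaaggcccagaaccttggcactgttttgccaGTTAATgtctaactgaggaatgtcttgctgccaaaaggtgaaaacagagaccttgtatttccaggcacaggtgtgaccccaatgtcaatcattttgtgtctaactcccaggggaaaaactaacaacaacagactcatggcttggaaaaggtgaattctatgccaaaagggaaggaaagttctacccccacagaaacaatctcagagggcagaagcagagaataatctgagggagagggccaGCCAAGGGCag
Slc12a3, chr8:94328958-94329257, plus strand: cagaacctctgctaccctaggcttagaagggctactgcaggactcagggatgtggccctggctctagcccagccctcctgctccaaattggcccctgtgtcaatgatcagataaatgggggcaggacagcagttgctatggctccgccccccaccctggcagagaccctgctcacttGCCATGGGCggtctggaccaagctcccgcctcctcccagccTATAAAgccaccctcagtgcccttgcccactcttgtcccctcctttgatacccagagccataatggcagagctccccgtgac
Pvalb, chr15:78206351-78206650, minus strand: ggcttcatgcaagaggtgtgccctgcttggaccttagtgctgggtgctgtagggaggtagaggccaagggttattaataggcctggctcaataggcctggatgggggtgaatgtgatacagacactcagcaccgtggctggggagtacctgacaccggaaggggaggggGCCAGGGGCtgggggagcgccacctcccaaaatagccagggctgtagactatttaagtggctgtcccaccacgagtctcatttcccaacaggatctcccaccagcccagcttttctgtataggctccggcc
The Slc12a1 window held none of the 4 motifs. The Umod window held the HNF1 motif at -202 from the start, a motif found in 7.1% of all 32851 windows and in no other window of these genes. The TATA box of Slc12a3 lay at -32, and 13.6% of all windows hold those letters. The AP-2 letters were in 5 of the 10 windows of these genes, those of Umod (39 after the start), Slc12a3 (-73), Trpm6 (-68) and both of Pvalb (-81 in the one printed), and in 16.6% of all windows. The estrogen-related receptor site was in none of the 10 and in 0.423% of all windows. A match describes letters in a window and not the binding of a factor.

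The libraries held 39074224 to 67948710 counts. Ybx3 checked the labels, with 9.28 to 18.6 CPM (read counts relative to the scaled library size) in the 6 knockout libraries, against 30.2 to 104.5 CPM in the 6 wild-type libraries. Several libraries stood apart from their groups. The summed level of Y-linked genes was 45.2, 227 and 1.26 CPM in knockout IRI replicates 1 to 3 and 1.18, 249 and 261 CPM in knockout control. Wild-type IRI libraries had 207, 33.2 and 307 CPM, against 1.14 to 1.79 CPM in wild-type control, so that in wild type the injury and the Y-linked level cannot be told apart. The labels give no sex, and whether these levels, in part intermediate, come from mice of both sexes or from mixed or exchanged libraries was not tested. Adrenal genes summed to 272 and 1397 CPM in knockout IRI replicates 1 and 2, against 5.15 to 7.49 CPM in the other 10 libraries. Erythroid (red blood cell) genes summed to 305 CPM in wild-type IRI replicate 3, against 7.86 to 134.5 CPM in all other libraries. The injured tubule list summed to 384, 726 and 441 CPM in knockout IRI against 14.6 to 22.6 CPM in knockout control, and to 1242, 587 and 2010 CPM in wild-type IRI against 23.0 to 27.7 CPM in wild-type control. In the accounts that follow, values are listed for replicates 1 to 3 in that order.

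**Figure D1:**
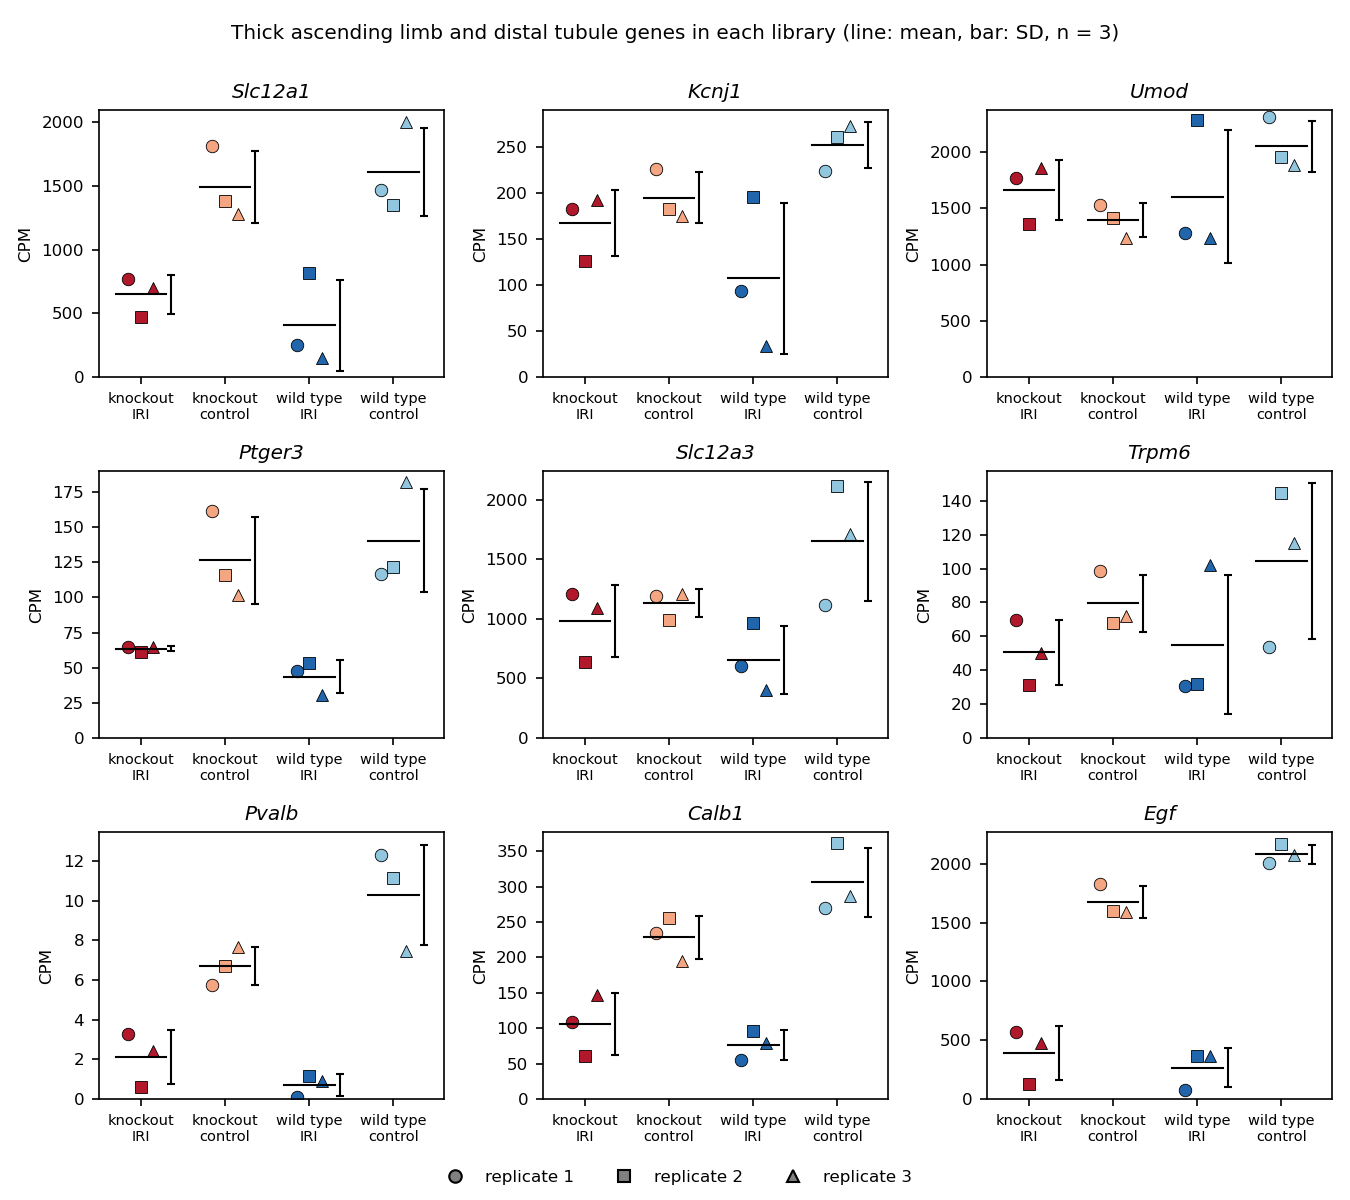
CPM of each of the 9 genes in every library, by group, with the mean as a line and the SD as a bar (n = 3). Slc12a1, Ptger3, Pvalb, Calb1 and Egf were lower in every IRI library than in every control library of either genotype. The share of all genes tested for which this was so was not counted. Umod reached 1239 to 2285 CPM in IRI libraries and 1239 to 2309 CPM in control libraries.

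After IRI most of these genes were lower, and the share of all counts that the 9 held showed it first. They took 0.494%, 0.301% and 0.475% of the counts in knockout IRI kidneys, against 0.751%, 0.578% and 0.550% in knockout control kidneys. In wild type they took 0.239%, 0.491% and 0.216% after IRI, against 0.741%, 0.855% and 0.890% in control. The groups did not overlap in either genotype. In knockout kidneys Calb1 and Ptger3 fell, 2 of the 9, where 2.42% of all genes tested were called lower. In wild-type kidneys 6 of the 9 fell, Pvalb, Egf, Calb1, Slc12a1, Ptger3 and Slc12a3, where 9.41% of all genes were called lower. No gene of the 9 was called higher. Scaling by total counts alone left 0 of the 9 called in knockout, where 1531 of all genes were called, 75.2% of them higher. A covariate for the Y-linked level left 0 of the 9 in wild type, where only 306 of all genes were called. Neither knockout call held without both adrenal libraries, a fit that leaves 1 knockout IRI library. A gene was called at an adjusted p under 0.05 in edgeR's quasi-likelihood test over all genes tested. The median log2 fold change of the 9 was -0.99 in knockout, where that of all tested genes was 0.02, and -1.68 in wild type, where it was 0.02. In whole kidney RNA, fewer cells of a segment and less RNA per cell cannot be told apart. IRI and control libraries did not overlap for 5 of the 9 genes in knockout and 7 of the 9 in wild type, all lower after IRI, as was so for 15% and 19.9% of all genes tested. Marker sums of proximal tubule and intercalated cells were lower after IRI as well, without overlap, but those of other nephron cells were not all so. Collecting duct principal cell genes summed to 204 to 464 CPM in wild-type IRI against 523 to 578 CPM in wild-type control. In knockout they overlapped, at 373 to 541 CPM after IRI against 401 to 600 CPM in control. Podocyte sums overlapped in both genotypes, at 382 to 545 CPM in knockout IRI against 343 to 415 CPM in knockout control. Proximal tubule genes summed to 4770.5 to 8975 CPM in knockout IRI against 12577 to 16527 CPM in knockout control, and to 4389.7 to 8386 CPM in wild-type IRI against 13295 to 17087 CPM in wild-type control. Intercalated cell genes summed to 108 to 201 CPM in knockout IRI against 254 to 267 CPM in knockout control, and to 103 to 201 CPM in wild-type IRI against 296 to 409 CPM in wild-type control. The summed injured tubule genes and, in wild type, the Y-linked level moved with these values, and their part was not tested beyond the covariate fit given with the Y-linked level.

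**Figure D2:**
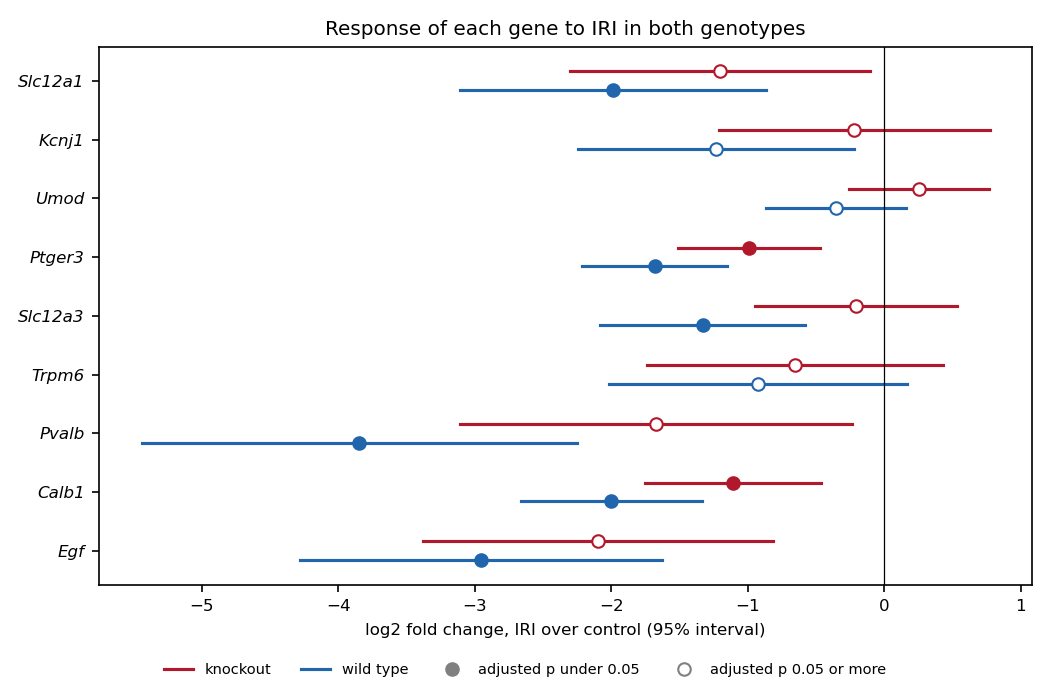
log2 fold change of IRI over control for each gene, knockout above wild type, with the 95% interval of the edgeR fit as a line and a filled point where the adjusted p is under 0.05. Only 2 knockout points and 6 wild-type points are filled, and the intervals of both genotypes overlap for every gene.

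Slc12a1 (ENSMUSG00000027202, chromosome 2, 125152505 to 125230002, plus strand, mm10) encodes the salt entry step of the thick ascending limb. It had 770.3, 472 and 700.2 CPM in knockout IRI kidneys, against 1811, 1383 and 1278 CPM in knockout control kidneys. In wild type it had 249.6, 816 and 149 CPM after IRI, against 1468, 1349 and 1997 CPM in control. Every IRI library lay below every control library, and wild-type IRI replicate 2 stood above all 3 knockout IRI libraries while the other two wild-type IRI libraries stood below them. The log2 fold change was -1.20 in knockout (SE 0.50, edgeR adjusted p = 0.178) and -1.99 in wild type (SE 0.51, edgeR adjusted p = 0.0214), and only the wild-type one was called. That call ended when wild-type control replicate 2 or 3 or IRI replicate 1 was left out (edgeR adjusted p = 0.0504, 0.0704 and 0.0761), and the knockout difference passed when wild-type IRI replicate 2 was (edgeR adjusted p = 0.0197).

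Kcnj1 (ENSMUSG00000041248, chromosome 9, 32372493 to 32399197, plus strand) encodes the potassium channel that recycles potassium for that cotransporter. Knockout IRI kidneys had 183, 126 and 193 CPM, against 227, 183 and 175 CPM in knockout control kidneys. Wild-type IRI kidneys had 93.1, 196 and 33.5 CPM, against 224, 261 and 273 CPM in wild-type control kidneys. The groups overlapped in knockout and did not in wild type, where replicate 3 was the lowest of all 12 libraries. Neither difference was called, with log2 fold changes of -0.22 (SE 0.45, edgeR adjusted p = 0.834) in knockout and -1.23 (SE 0.46, edgeR adjusted p = 0.0728) in wild type. Without wild-type IRI replicate 2 the wild-type value was -2.00 and was called (edgeR adjusted p = 0.00287), as it was by DESeq2 with all libraries (adjusted p = 0.0239).

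Umod (ENSMUSG00000030963, chromosome 7, 119462711 to 119479282, minus strand) differed from Slc12a1 and Ptger3 of its segment, whose IRI and control libraries did not overlap. It was less apart from Kcnj1, which overlapped its controls in knockout too (log2 fold change -0.22, edgeR adjusted p = 0.834). The level of Umod was 1774, 1358 and 1860.1 CPM in knockout IRI kidneys, against 1533, 1415 and 1239 CPM in knockout control kidneys. In wild type it was 1281, 2285 and 1239 CPM after IRI, against 2309, 1959 and 1884 CPM in control. The groups overlapped in both genotypes, and in 5 of the 6 IRI libraries Umod kept the highest share of its own control mean among the 9 genes, 60.4% to 133% over all 6 libraries. The log2 fold change was 0.25 (SE 0.23, 95% interval -0.26 to 0.77, edgeR adjusted p = 0.580) in knockout and -0.36 (SE 0.23, 95% interval -0.87 to 0.16, edgeR adjusted p = 0.278) in wild type. These intervals leave room for changes in either direction. Without wild-type IRI replicate 2 the wild-type value was -0.70 and was called (edgeR adjusted p = 0.0117).

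The counts of Slc12a1 per count of Umod, which need no scaling between libraries, describe the same pair. They were 0.434, 0.348 and 0.376 in knockout IRI kidneys, against 1.18, 0.977 and 1.03 in knockout control kidneys. They were 0.195, 0.357 and 0.120 in wild-type IRI kidneys, against 0.636, 0.689 and 1.06 in wild-type control kidneys. The ratio was lower in every IRI library than in every control library, and since the pair was picked for its different response this is a description only. The counts of Egf per count of Umod were 0.0947 to 0.319 in knockout IRI kidneys against 1.13 to 1.28 in knockout control kidneys, and 0.0580 to 0.293 in wild-type IRI kidneys against 0.868 to 1.11 in wild-type control kidneys.

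Ptger3 (ENSMUSG00000040016, chromosome 3, 157566892 to 157645888, plus strand) encodes the prostaglandin E2 receptor EP3, which in the thick ascending limb opposes the hormone signal for salt uptake through cyclic AMP. It had 64.8, 61.4 and 64.5 CPM in knockout IRI kidneys, against 161, 116 and 102 CPM in knockout control kidneys. In wild-type IRI kidneys it had 47.3, 53.0 and 30.6 CPM, against 117, 122 and 182 CPM in wild-type control kidneys. IRI and control did not overlap in either genotype, and the 3 knockout IRI libraries lay within a narrow range. Ptger3 fell in both, by -0.99 on the log2 scale (SE 0.24, edgeR adjusted p = 0.0360) in knockout and by -1.68 (SE 0.24, edgeR adjusted p = 0.00258) in wild type. The wild-type call held in all 12 fits that left out 1 library. The knockout call ended without wild-type control replicate 2 or any 1 of the knockout libraries (edgeR adjusted p from 0.0543 to 0.138), and without both adrenal libraries (log2 fold change -0.99, edgeR adjusted p = 0.410).

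Slc12a3 (ENSMUSG00000031766, chromosome 8, 94329201 to 94366214, plus strand) encodes the salt entry step of the distal convoluted tubule. Its levels were 1205, 636 and 1094 CPM in knockout IRI kidneys, against 1189, 994 and 1206 CPM in knockout control kidneys. They were 603, 963 and 403 CPM in wild-type IRI kidneys, against 1119, 2117 and 1715 CPM in wild-type control kidneys. In knockout, replicates 1 and 3 after IRI lay among the controls and replicate 2 below them, while in wild type the groups did not overlap. The log2 fold change was -0.21 (SE 0.34, edgeR adjusted p = 0.781) in knockout and -1.33 (SE 0.34, edgeR adjusted p = 0.0214) in wild type, and the wild-type one was called. The call ended when wild-type control replicate 2 or 3 or IRI replicate 1 or 3 was left out (edgeR adjusted p = 0.0814, 0.0636, 0.0718 and 0.0520).

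Trpm6 (ENSMUSG00000024727, chromosome 19, 18749983 to 18892511, plus strand) encodes the magnesium channel subunit of the distal convoluted tubule. It had 69.7, 31.5 and 50.3 CPM in knockout IRI kidneys, against 98.7, 67.7 and 72.1 CPM in knockout control kidneys. In wild type it had 30.8, 32.0 and 102 CPM after IRI, against 53.9, 144 and 115 CPM in control. The groups overlapped in both genotypes, and neither difference was called, at -0.65 (SE 0.49, edgeR adjusted p = 0.481) in knockout and -0.93 (SE 0.49, edgeR adjusted p = 0.188) in wild type. Wild-type IRI replicate 3 went its own way, with the highest level of its group for Trpm6 and the lowest for Slc12a3, Kcnj1, Slc12a1, Ptger3 and Umod. Its counts of Trpm6 per count of Slc12a3 were 0.254, against 0.0333 to 0.083 in the other 11 libraries, and without it the wild-type log2 fold change of Trpm6 was -1.74 and was called (edgeR adjusted p = 0.0231).

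Pvalb (ENSMUSG00000005716, chromosome 15, 78191114 to 78206400, minus strand) encodes parvalbumin, a calcium buffer of the early distal convoluted tubule and of fast muscle fibres. It was the lowest of the 9, with 3.3, 0.608 and 2.42 CPM in knockout IRI kidneys, against 5.75, 6.71 and 7.67 CPM in knockout control kidneys. In wild type it had 0.0813, 1.14 and 0.915 CPM after IRI, from 4, 61 and 43 counts, against 12.3, 11.1 and 7.44 CPM in control. No IRI library reached a control library in either genotype. The log2 fold change was -1.67 (SE 0.65, edgeR adjusted p = 0.153) in knockout, which was not called, and -3.85 (SE 0.72, edgeR adjusted p = 0.00680) in wild type, which was called and held in all 12 fits that left out 1 library. The skeletal muscle list of 10 genes summed to 1.19 to 1.98 CPM in knockout IRI kidneys and 1.73 to 3.31 CPM in knockout control kidneys. It summed to 1.20 to 1.94 CPM in wild-type IRI kidneys against 3.45 to 4.22 CPM in wild-type control kidneys. None of the 10 passed 69 counts in any library, and the skeletal actin gene Acta1 was listed at 0 in all 12, a value that the counting, whose rules are not given, may also set. The part of muscle RNA in the Pvalb difference was not tested.

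Calb1 (ENSMUSG00000028222, chromosome 4, 15881264 to 15908064, plus strand) encodes calbindin, which carries calcium across the cells of the late distal convoluted and connecting tubule. It had 109, 60.7 and 148 CPM in knockout IRI kidneys, against 234, 255 and 196 CPM in knockout control kidneys. In wild type it had 54.6, 95.8 and 79.1 CPM after IRI, against 269.6, 362 and 286 CPM in control. IRI and control did not overlap in either genotype. Calb1 fell in both, by -1.11 on the log2 scale (SE 0.29, edgeR adjusted p = 0.0489) in knockout and by -2.00 (SE 0.30, edgeR adjusted p = 0.00305) in wild type. The knockout call ended without any 1 of the 6 control libraries or knockout IRI replicate 1 or 2 (edgeR adjusted p from 0.0691 to 0.161), and the wild-type call held in all 12 such fits. Without both adrenal libraries the knockout value was -0.65 (edgeR adjusted p = 0.499).

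Egf (ENSMUSG00000028017, chromosome 3, 129677565 to 129755316, minus strand) encodes the membrane precursor of epidermal growth factor, a mitogen of tubule cells that also supports magnesium uptake through the Trpm6 channel. It had 566, 129 and 479 CPM in knockout IRI kidneys, against 1827, 1602 and 1587 CPM in knockout control kidneys. In wild type it had 74.3, 366 and 363 CPM after IRI, against 2003, 2165 and 2072 CPM in control. The highest IRI library of either genotype was below every control library by a wide margin, and the IRI libraries differed more among themselves than the controls did. The log2 fold change was -2.10 (SE 0.58, edgeR adjusted p = 0.0571) in knockout, just over the threshold, and -2.96 (SE 0.60, edgeR adjusted p = 0.00905) in wild type, which was called. The wild-type call held in all 12 fits that left out 1 library. The knockout difference passed when wild-type IRI replicate 1, 2 or 3 was left out (edgeR adjusted p = 0.0228, 0.0480 and 0.0409) and with DESeq2 (adjusted p = 0.00221).

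**Figure D3:**
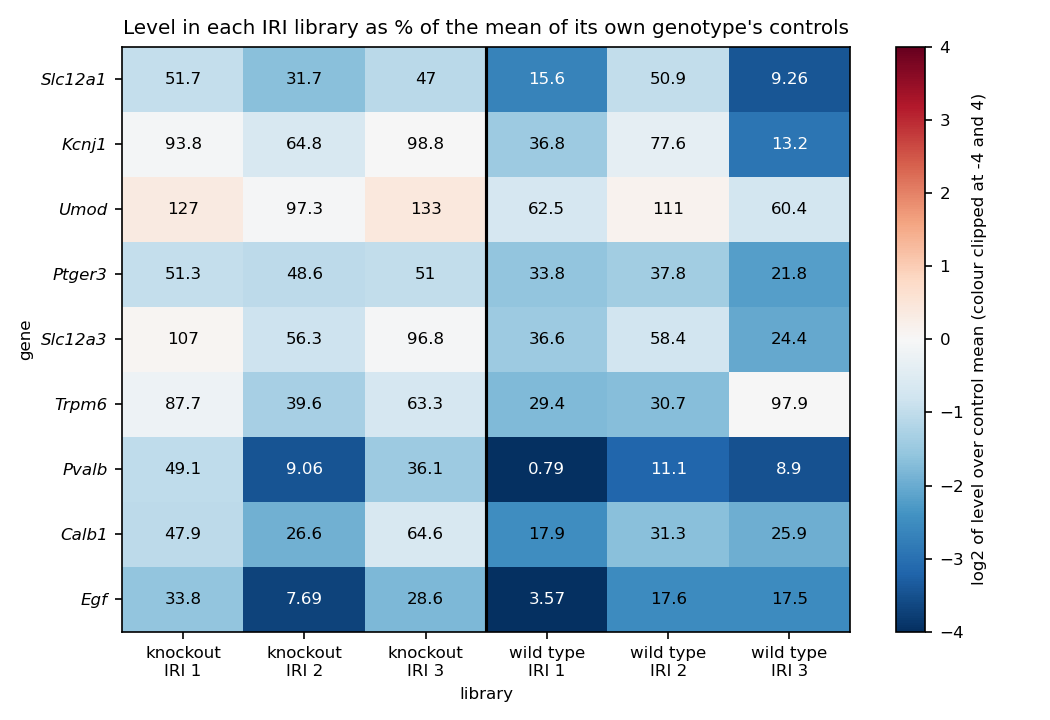
Level of each gene in each IRI library as a percentage of the mean of its own genotype's 3 control libraries, with the log2 of that ratio as colour. Egf and Pvalb are dark in knockout IRI replicate 2 and in all wild-type IRI libraries, while Umod is pale throughout, from 60.4% to 133%.

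Set against the mean of its own genotype's controls, Egf was the lowest gene in each knockout IRI library, at 33.8%, 7.69% and 28.6%, and Pvalb the lowest in each wild-type IRI library, at 0.79%, 11.1% and 8.90%. The number of the 9 genes under 50% was 3, 6 and 3 for knockout IRI replicates 1 to 3, and 8, 5 and 7 for those of wild-type IRI. Knockout IRI replicate 2 had the lowest level of its group for all 9 genes. It was also the library with the most adrenal RNA, and had the highest injured tubule sum and the highest Y-linked level of its group. The part of these in its values was not tested, and the share of all genes tested that were lowest in that library was not counted. In wild type, IRI replicate 2 had the lowest injured tubule sum and the lowest Y-linked level of its group. It had 5 of the 9 genes under 50%, the fewest there. The share of all genes tested that lay under 50% in each library was not counted.

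Levels per kilobase of exon depend on the length used, here the union of exons over all annotated transcripts of a gene. It was 2.76 kb for Umod, 5.76 kb for Slc12a1, 11.28 kb for Egf and 11.12 kb for Slc12a3. Whether these lengths match the transcripts present in kidney was not tested, so the ranks between genes hold for these lengths only. On this scale Umod led in every group. It reached 602 ± 97.1 CPM per kilobase in knockout IRI, 505 ± 53.5 in knockout control, 579.7 ± 214 in wild-type IRI and 742 ± 82.1 in wild-type control kidneys (mean ± SD, n = 3 each). Slc12a1 came second in all 4 groups, with 112 ± 27.1 CPM per kilobase in knockout IRI against 259 ± 49.0 in knockout control and 70.2 ± 62.4 in wild-type IRI against 278 ± 59.9 in wild-type control. Egf had rank 3 in both control groups and rank 5 in both IRI groups, behind Slc12a3 and Kcnj1, with 34.7 ± 20.5 CPM per kilobase in knockout IRI against 148 ± 12 in knockout control and 23.8 ± 14.9 in wild-type IRI against 184.5 ± 7.21 in wild-type control. The order of the remaining genes, Slc12a3, Kcnj1, Calb1, Ptger3, Trpm6 and Pvalb, was the same in the 4 groups. Some neighbours in that order did not differ beyond their spread, among them Slc12a1 and Slc12a3 after IRI in both genotypes (Slc12a3 at 88.0 ± 27.2 in knockout and 59.0 ± 25.5 in wild type), and Ptger3 and Trpm6 in wild-type IRI (7.67 ± 2.05 and 7.13 ± 5.31). Egf and Slc12a3 in wild-type control kidneys lay within 1 SD of each other too, with Slc12a3 at 148 ± 45.2.

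Across the groups the means of 7 of the 9 genes ran in 1 order, highest in wild-type control, then knockout control, then knockout IRI, and lowest in wild-type IRI. Trpm6 had the 2 IRI groups the other way round, at 50.5 ± 19.1 CPM in knockout IRI and 55.1 ± 41.0 CPM in wild-type IRI (SD, n = 3 each). Umod alone had its lowest mean in knockout control, at 1396 ± 148 CPM, against 2051 ± 227 CPM in wild-type control (SD, n = 3 each). Both IRI groups overlapped for 8 of the 9 genes. The exception was Ptger3, higher in knockout without overlap, as 6.28% of all genes tested were. The control groups overlapped for 6, the exceptions being Umod, Egf and Calb1, lower in knockout without overlap, as 10.1% of all genes tested were.

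None of the 9 genes passed the threshold between knockout and wild type. In control kidneys all 9 had a log2 fold change below 0, from -0.62 for Pvalb to -0.11 for Slc12a1, with a median of -0.39 against -0.01 over all genes tested. The count of called genes was 0 of 9 with edgeR, where 0.0104% of all genes were called, and 0 of 9 with DESeq2, which called 72 genes in all, and 1 of the 9 was at an unadjusted p under 0.05 where 5.36% of all genes were. That gene was Umod, at -0.56 on the log2 scale (SE 0.23, 95% interval -1.07 to -0.04, edgeR adjusted p = 0.891). Umod, Egf and Calb1 were lower in every knockout control library than in every wild-type control library, as 10.1% of all genes tested were. Egf stood at 1672 ± 135 CPM in knockout control and 2080.3 ± 81.3 CPM in wild-type control (SD, n = 3 each), a difference of -0.32 on the log2 scale (SE 0.56, edgeR adjusted p = 0.999). Knockout control replicates 2 and 3 had 249 and 261 CPM of Y-linked genes and the wild-type control libraries at most 1.79 CPM. Knockout control replicate 1, at 1.18 CPM, was below all 3 wild-type controls for Umod (1533 CPM), Egf (1827 CPM), Calb1 (234 CPM) and Pvalb (5.75 CPM) and within their range for the other 5 genes. This rests on 1 library, and the share of all genes tested in the same position was not counted.

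After IRI 8 of the 9 genes had a log2 fold change above 0 for knockout against wild type, from -0.12 for Trpm6 to 1.56 for Pvalb, with a median of 0.55 against -0.01 over all genes. None was called with edgeR, where 0.0104% of all genes were called, or with DESeq2, which called 117 genes in all, and 2 of the 9 were at an unadjusted p under 0.05 where 11.5% of all genes were. These were Pvalb and Ptger3. Pvalb was at 2.11 ± 1.37 CPM in knockout IRI and 0.711 ± 0.557 CPM in wild-type IRI (SD, n = 3 each), a difference of 1.56 on the log2 scale (SE 0.69, edgeR adjusted p = 0.433). Ptger3 was at 63.6 ± 1.87 CPM in knockout IRI and 43.7 ± 11.7 CPM in wild-type IRI (SD, n = 3 each), with every knockout library above every wild-type one, as in 6.28% of all genes (log2 fold change 0.54, SE 0.24, edgeR adjusted p = 0.433). Without wild-type IRI replicate 2, Slc12a1 was called higher in knockout (log2 fold change 1.7, edgeR adjusted p = 0.0397).

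Whether IRI acted differently in the 2 genotypes was tested as the interaction, the knockout response minus the wild-type response on the log2 scale. All 9 estimates were above 0, from 0.27 for Trpm6 to 2.17 for Pvalb, with a median of 0.86 against -0.01 over all genes tested. None was called with edgeR or DESeq2 (edgeR adjusted p from 0.666 to 0.895), and edgeR called 0 of all 19218 genes and DESeq2 33. Slc12a3 and Pvalb were at an unadjusted p under 0.05, where 7.02% of all genes were. The interaction of Slc12a3 was 1.12 (SE 0.48, 95% interval 0.08 to 2.17, edgeR adjusted p = 0.666), and that of Pvalb was 2.17 (SE 0.93, 95% interval 0.12 to 4.23, edgeR adjusted p = 0.666). The intervals of the other 7 all held 0, the narrowest being that of Umod, from -0.11 to 1.33. The calls made in wild type and missed in knockout do not by themselves show a difference between the genotypes. The libraries behind the interaction are those of the comparisons already given, and its estimates are not separate evidence.

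**Figure D4:**
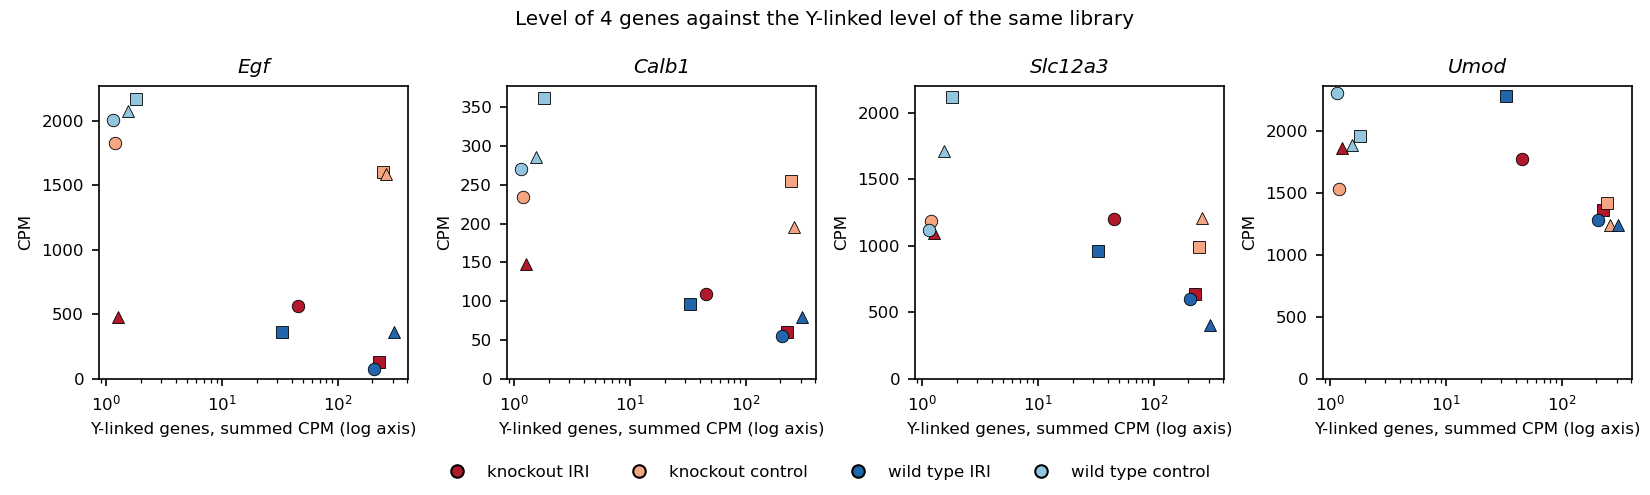
CPM of Egf, Calb1, Slc12a3 and Umod in each library against the summed CPM of Y-linked genes in the same library on a log axis, coloured by group. The 3 wild-type control libraries all lie at the left, the Egf points of IRI and control libraries lie apart at low and at high Y-linked levels, with no control library in between, and the 5 libraries over 200 CPM hold the lowest Umod values.

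The Y-linked level moved with several of these values. The 5 libraries over 200 CPM of Y-linked genes, 1 knockout IRI, 2 knockout control and 2 wild-type IRI, had 1239 to 1415 CPM of Umod, against 1533 to 2309 CPM in the other 7. No overlap of this kind and direction was seen in 2.16% of all genes tested. Kcnj1 did not overlap either, but its highest of the 5 and its lowest of the 7 both rounded to 182.6 CPM, and the other 7 genes overlapped. Within knockout, where both conditions held libraries of either kind, IRI could be set against control at like Y-linked levels with 1 to 2 libraries a side and no test. Egf was at 26.2% of control in replicate 3 against control replicate 1, both low in Y-linked reads, and at 8.06% in replicate 2 against the mean of control replicates 2 and 3, all high. Slc12a1 was at 38.7% and 35.5%, Ptger3 at 40% and 56.4%, Calb1 at 63.0% and 26.9%, Pvalb at 42.2% and 8.45%, Trpm6 at 51.0% and 45.1% in those 2 settings. Slc12a3 was at 92% and 57.8%, Kcnj1 at 85.0% and 70.5%, and Umod at 121% and 102%. Umod was thus above control in the first setting. In the second it lay between its controls, at 1358 CPM against 1415 and 1239 CPM. The others were below control in both settings, and how many of all genes tested lay below was not counted. The second setting rests on knockout IRI replicate 2, with 1397 CPM of adrenal genes and the lowest level of its group for all 9. With a covariate for the Y-linked level, an alternative chosen after seeing the data, 0 of the 9 were called in wild type (edgeR adjusted p from 0.0501 for Ptger3 to 0.280 for Slc12a3 among the 6), and Calb1 and Ptger3 were still called in knockout. That fit called 306 of all genes in wild type and 1156 in knockout.

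Other genes of the same segments and their pathways were counted in 6 lists. Of 12 other genes of the thick ascending limb, edgeR called none in knockout (median log2 fold change -0.18), where DESeq2 called 3 lower, as did edgeR with only the groups compared, and fits without 1 library called 0 to 4. In wild type 3 fell and 1 rose (median -0.86), with 1 to 8 lower calls without 1 library and 7 with DESeq2. Tmem207, a membrane protein gene, was at 2.74 ± 2.39 CPM in wild-type IRI kidneys and 18.8 ± 5.82 CPM in wild-type control (log2 fold change -2.77, edgeR adjusted p = 0.00892), and Ppp1r1b, which encodes the phosphatase inhibitor DARPP-32, at 2.17 ± 2.35 and 10.6 ± 2.98 CPM (-2.28, edgeR adjusted p = 0.0257, SD, n = 3 each). The gene that rose was Cldn14 (1.84), a claudin that blocks the route of calcium and magnesium between the cells. Cldn14 stayed under 1 CPM on average in every group, and it was named after its values were seen. Of the genes tested, 3.9% were called higher and 2.42% lower in knockout, and 13.1% higher and 9.41% lower in wild type.

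In the distal convoluted and connecting tubule list 10 of 11 genes were tested. In knockout 2 fell (median -0.10), and in wild type 4 fell and 1 rose (median -0.68). Kl, which encodes the FGF23 co-receptor klotho, fell in both, to 242 ± 78.2 CPM in knockout IRI against 669 ± 149.6 CPM in knockout control (log2 fold change -1.47, edgeR adjusted p = 0.0202) and to 205 ± 72.3 CPM in wild-type IRI against 689.9 ± 90.8 CPM in wild-type control (-1.75, edgeR adjusted p = 0.00487, SD, n = 3 each). Fxyd2, a regulatory subunit of the sodium pump, fell in both as well (-0.65 in knockout, edgeR adjusted p = 0.0405, and -0.66 in wild type, edgeR adjusted p = 0.0172). Slc8a1, the basolateral sodium-calcium exchanger, fell in wild type to 403 ± 143 CPM, against 2239 ± 911 CPM in wild-type control (-2.47, edgeR adjusted p = 0.00319). The calcium pump gene Atp2b1 rose there by 0.27 (edgeR adjusted p = 0.0464).

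Of 7 tested genes of magnesium handling, 1 rose and 1 fell in knockout (median -0.18), and 1 rose and 4 fell in wild type (median -0.48). Slc41a1, a magnesium transporter gene, rose in both, to 35.6 ± 4.21 CPM in knockout IRI against 21.0 ± 0.358 CPM in knockout control and 41.2 ± 8.24 CPM in wild-type IRI against 24.7 ± 1.7 CPM in wild-type control (log2 fold changes 0.76 and 0.74, edgeR adjusted p = 0.0147 and 0.00762). Pcbd1, which encodes a partner of the transcription factor HNF1, fell in both (-1.05 and -1.18, edgeR adjusted p = 0.0107 and 0.00342). Cnnm4, of a family of magnesium transport proteins, fell in wild type (-1.0, edgeR adjusted p = 0.0174).

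Both cotransporters are phosphorylated and switched on through the pathway of the WNK and SPAK kinases. Of 12 tested genes of that system edgeR called none in knockout (median -0.21), nor did DESeq2, while 4 fell in wild type (median -0.25). Klhl3, which targets WNK4 for degradation, was at 73.5 ± 57.6 CPM in wild-type IRI kidneys and 264.5 ± 90.0 CPM in wild-type control (-1.85, edgeR adjusted p = 0.0341), and Ppp1r1a, a phosphatase inhibitor gene, at 28.6 ± 23.1 and 88.4 ± 13.8 CPM (-1.63, edgeR adjusted p = 0.0321, SD, n = 3 each). The other two were Wnk4 (-1.11) and Wnk1 (-0.72), named after their values were seen. Of 9 tested genes of prostaglandin E2 synthesis and its receptors, 2 rose and none fell in knockout (median 0.19), and 3 rose and 2 fell in wild type (median 0.17). Ptgs2, which encodes the inducible cyclooxygenase COX-2, rose in both, to 1.98 ± 0.620 CPM in knockout IRI against 0.362 ± 0.0631 CPM in knockout control and 2.47 ± 0.916 CPM in wild-type IRI against 0.725 ± 0.484 CPM in wild-type control (2.44 and 1.77, edgeR adjusted p = 0.0170 and 0.0221). The prostaglandin transporter gene Slco2a1 rose in both too (0.91 and 0.48, edgeR adjusted p = 0.00522 and 0.0256). Hpgd, of prostaglandin breakdown, and the receptor gene Ptger1 fell in wild type (-1.82 and -0.58, edgeR adjusted p = 0.0130 and 0.0396). Ptges3 (0.37), a synthase gene named after its value was seen, also rose there.

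Of 9 tested transcription factor genes of the distal nephron, 1 fell in knockout (median -0.42) and 2 fell in wild type (median -0.62). Irx1, of the Iroquois family, was the one in knockout (-0.85, edgeR adjusted p = 0.0476). Esrrb, an estrogen-related receptor, was at 46.2 ± 14.8 CPM in wild-type IRI kidneys and 141.6 ± 44.9 CPM in wild-type control (-1.61, edgeR adjusted p = 0.00733), and Ppargc1a, a coactivator of such receptors and of mitochondrial genes, at 114 ± 47.0 and 263 ± 44.8 CPM (-1.21, edgeR adjusted p = 0.0143, SD, n = 3 each). In the 2 genotype comparisons and the interaction, edgeR called 0 genes of these 6 lists. Of 25 calls in wild type 7 held in every fit without 1 library, those of Tmem207, Slc8a1, Kl, Pcbd1, Slc41a1, Wnk4 and Esrrb, and of 7 in knockout 1 did, that of Slco2a1. The others ended without at least 1 library of the genotype compared, with adjusted p up to 0.128 in wild type and 0.174 in knockout. With the Y-linked covariate 0 genes of the lists were called in wild type, where only 306 of all genes were. No knockout call of the lists held without the 2 adrenal libraries, a fit that leaves 1 knockout IRI library. With only the groups compared the lists held 11 calls in knockout and 4 in wild type, with DESeq2 12 and 35, and in fits without 1 library 1 (without knockout control replicate 2 or 3) to 13 (without wild-type IRI replicate 3) in knockout and 7 (without wild-type IRI replicate 1) to 42 (without replicate 2) in wild type.

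**Figure D5:**
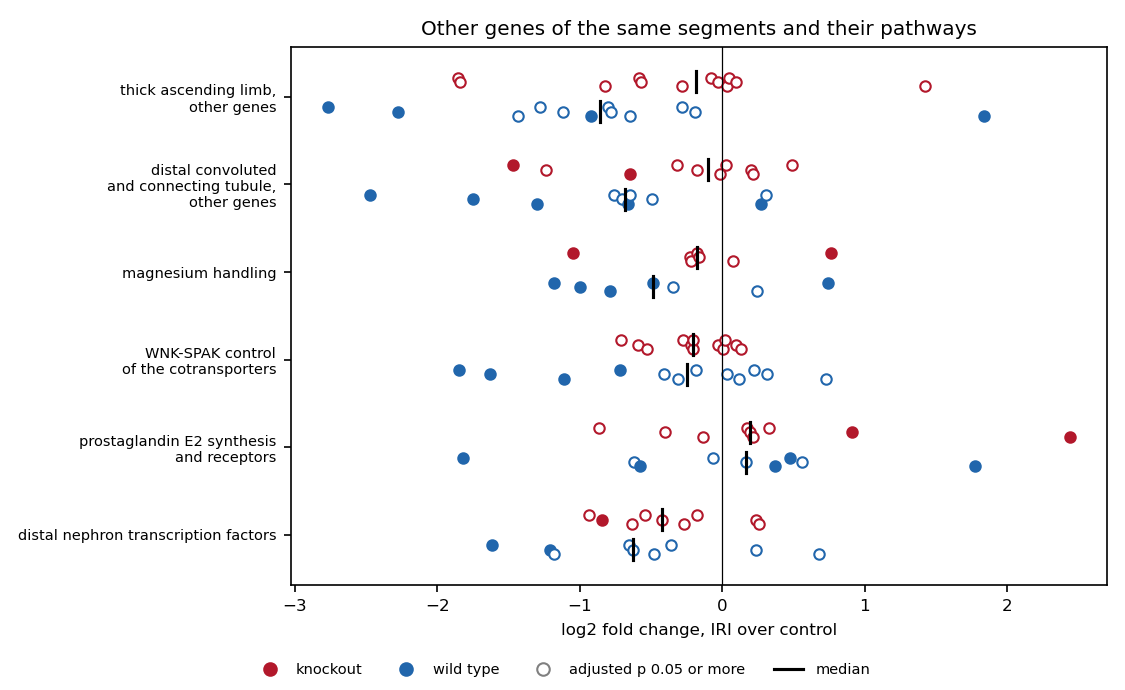
log2 fold change of IRI over control for each tested gene of the 6 lists, knockout above wild type, filled where the edgeR adjusted p is under 0.05, with the list's median as a black bar. The wild-type medians of the 2 segment lists lie at -0.86 and -0.68, and those of the prostaglandin list lie just above 0 in both genotypes.

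Among the 9 genes, the pair most alike over the 12 libraries was Slc12a3 and Kcnj1, with a root-mean-square difference of 0.355 between their log2 CPM centred on each gene's mean. Slc12a3 and Ptger3 (0.439) and Calb1 and Ptger3 (0.450) came next, and Umod and Pvalb were the least alike (1.83). Egf was nearest to Pvalb (0.546), where its median difference from the genes outside the 9 was 1.62. Umod was nearest to Slc12a3 (0.513), but this was more than its median difference from the genes outside the 9 (0.415). Umod and Slc12a1 differed by 0.995. The measure also grows with a gene's own SD over the libraries, which was 0.317 for Umod and 1.94 for Pvalb. All genes share the differences between the libraries in injury, depth and Y-linked level, so that such likeness is a description. Outside the 9, over 13457 genes of at least 1 CPM, the nearest to Umod were Tspan1 (0.125), Selenow (0.132) and Fzd4 (0.141), and to Egf C8a (0.323), Gys2 (0.456) and Slc34a3 (0.472). Nearest to Slc12a1 were Rasgef1b (0.171), Slc16a7 (0.176) and Abca9 (0.226), and to Kcnj1 Dmtn (0.135), Hsd11b2 (0.164) and Kcnn1 (0.166). For Slc12a3 they were Plekhd1 (0.171), Unc5c (0.178) and Ddn (0.180), and for Ptger3 Tarm1 (0.204), Bckdhb (0.214) and Pcsk6 (0.214). Calb1 was nearest to Hs3st4 (0.228), Tldc2 (0.235) and Vwa2 (0.267), and Trpm6 to Cdc42ep3 (0.353), Cables1 (0.355) and Crispld1 (0.381). Pvalb, the gene with the fewest counts, had the most distant neighbours, Hao2 (0.663), Gys2 (0.727) and Vmn1r18 (0.732). Gys2 was thus among the 3 nearest of both Egf and Pvalb.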

How the data were processed

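Per the labels' protocols, ribosomal RNA was removed from total kidney RNA, directional libraries were made, and both ends were sequenced on a NovaSeq instrument. STAR and the build mm10 were used, per the submitters' processing notes. The counting tool, its strand setting and all versions are not given there. The authors deposited raw read counts per gene for the 12 samples, and every column was matched to a sample by its title.

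The deposited counts were tested with edgeR 4.0.16 in R 4.3.3 (limma 3.58.1 installed with it). Genes were kept by filterByExpr (minimum count 10, minimum total 15), library sizes were scaled by TMM, and 1 quasi-likelihood fit, with 1 coefficient for each group, used all 12 libraries. Tests were two-sided, with Benjamini-Hochberg adjustment over all 19218 genes tested and a threshold of 0.05. SEs and 95% intervals come from that fit. CPM use the TMM-scaled library size, and intervals and folds cover these libraries only. Replicates differed by more than sampling noise (chi-square per degree of freedom at least 21.0), so none was counted as a copy. Genes overlapping Egf, Slc12a1 and Trpm6 that the table holds, Gm24515, Gm14002 and Gm24190, were at 0 counts, and since the strand setting is unknown, antisense reads cannot be told apart from those of the 9 genes.

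Positions are from GENCODE M21 and exon lengths are the union of exons there. Of each pathway list, up to 2 called genes a direction with the largest log2 fold change and at least 1 CPM in the higher group were named, and the 3 nearest genes by root-mean-square difference for each of the 9 (prior count 2). The 9 genes and the lists were chosen with earlier results of these data known. Alternatives were RLE scaling, total counts alone, no filter beyond 1 count, a filter of 1 CPM in 3 libraries, DESeq2 1.42.0, only the groups compared, a replicate block and leaving out each library. After the data had been seen, 3 more were added: a covariate for the Y-linked level, a fit leaving out both libraries with adrenal RNA (replicates 1 and 2 of knockout IRI), and a fit leaving out both of intermediate Y-linked level (replicate 1 of knockout IRI and replicate 2 of wild-type IRI). The fit was tested on simulated data. A called gene of the lists is not reported here by name.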

Additional observations from a re-analysis of the deposited data

How the results depend on the processing

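Having 3 libraries a group limits every call. Of the 9 genes, 6 were called for IRI in wild type, 0 with the Y-linked covariate and 4 to 8 without 1 library. In knockout 2 were called, against 0 with total counts alone, 0 with the replicate block, 0 without the adrenal libraries, 1 without those of intermediate Y-linked level and 0 to 4 without 1 library. Without 1 library the counts were 0 to 0 for knockout against wild type in control, 0 to 1 after IRI and 0 to 0 for the interaction. Over all genes 4320 were called for IRI in wild type, against 1232 with only the groups compared, 2730 with the block, 306 with the Y-linked covariate, 6549 without those of intermediate Y-linked level and 1570 to 7129 without 1 library. In knockout 1215 were called, against 2494 with DESeq2, 469 with the block, 44 without the adrenal libraries and 178 to 2889 without 1 library. For knockout against wild type in control 2 were called, against 1 with the 1 CPM filter, 5 with only the groups compared, 72 with DESeq2 and 0 to 129 without 1 library. After IRI 2 were called, against 0 with only the groups compared, 117 with DESeq2, 0 with the block, 4 with the Y-linked covariate, 0 without the adrenal libraries, 1 without the intermediate ones and 0 to 876 without 1 library. The interaction called 0, against 33 with DESeq2 and 0 to 25 without 1 library, and was not refitted with only the groups compared. The same-numbered libraries' deviations correlated at -0.417 to 0.0773, over 0.1 in 0 of 12 pairs. The labels state no pairing, and with 3 libraries a group such values cannot exclude one. The replicate block (2730, 469 and 0 genes) is given for completeness. Estimates that changed sign with the Y-linked covariate were Umod for IRI in wild type (0.018), Egf (0.15), Slc12a1 (0.50), Kcnj1 (0.16) and Ptger3 (0.11) for genotype in control, and Umod after IRI (-0.081). Trpm6 after IRI changed to 0.025 with total counts alone, and its interaction to -0.33 without the intermediate libraries. Without 1 library, Slc12a3 in knockout ran from -0.39 to 0.0016, Slc12a1 and Ptger3 for genotype in control from -0.27 to 0.081 and -0.37 to 0.083, Umod and Trpm6 after IRI from -0.10 to 0.40 and -0.43 to 0.68, and the Trpm6 interaction from -0.034 to 1.08. None of these was called, and the cause was not tested. With only the groups compared, the wild-type calls of Slc12a1 (edgeR adjusted p = 0.0873) and Slc12a3 (0.0730) ended. Without the adrenal libraries, a fit that leaves 1 knockout IRI library and assumes that it varies like the other groups, Calb1 in knockout was -0.65 (edgeR adjusted p = 0.499). Total counts alone gave 75.2% of the knockout calls as higher, against 61.6%, and moved the median of all genes to 0.09 from -0.01 after IRI and to 0.13 from -0.01 in the interaction.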
